A study of Homo sapiens with 3 samples.

Results

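The La-related protein (LARP) family comprises SSB, which encodes the La protein, and LARP1, LARP1B, LARP4, LARP4B, LARP6 and LARP7. These 7 genes, of 57773 measured, were chosen by symbol after the ratios of LARP4 to the control had been seen, so the ratios to the control are given as a description. RNA was profiled in tumorspheres labelled as MDA-MB-231, a human breast cancer line of the triple-negative kind, as rRNA-depleted total RNA. The cells grew as floating clusters on plates of very low adhesion, with EGF, B27 and insulin in every group. One library came from spheres transfected with a LINC00273-pcDNA-CMV clone, a plasmid in which the CMV promoter drives the long non-coding RNA LINC00273. One came from wild-type spheres given 10 µM M2, for which the labels give no other name, and one from untreated wild-type spheres, the control. All carry the label 24 h. A library transfected with an empty plasmid or given the solvent of M2 was not analysed here, so transfection and solvent cannot be told apart from LINC00273 and M2.

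LARP proteins share the La module, a winged-helix La motif followed by an RNA recognition motif, and differ in the RNAs they hold. La itself binds the run of U residues that ends new RNA polymerase III transcripts and protects them from exonucleases. LARP7 does so for 7SK, which keeps the elongation factor P-TEFb inactive. LARP1 binds the cap and the terminal oligopyrimidine (TOP) tract of messages for ribosomal proteins under control of mTORC1. LARP4 and LARP4B bind poly(A)-binding protein and stabilise messages and their poly(A) tails, and LARP6 binds a stem-loop in type I collagen messages.

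The libraries held 5123199 reads on genes (labelled LINC00273 overexpression), 4695535 (M2) and 8620534 (control). LINC00273 had 0 reads in each, so every direction given for the first library rests on its label. RN7SL1 and RN7SK together took 42.8%, 39.3% and 54.7% of those reads. The mesenchymal marker VIM had 8910, 4182 and 11763 reads in the LINC00273-labelled, M2 and control libraries. Of the other markers of the line, MSN had 2286, 1189 and 2509 reads and FN1 had 620, 170 and 266. CAV1 had 208, 288 and 725, and AXL had 87, 32 and 151. CD44 and the keratins KRT8 and KRT18, all known to be expressed by this line, were low: CD44 had 44, 29 and 86 reads, KRT8 had 6, 2 and 0 and KRT18 had 4, 0 and 4. Among the receptor genes ESR1 had 16, 12 and 18 reads, PGR 9, 0 and 8 and ERBB2 50, 33 and 61, counts near those of CD44 for ERBB2. The luminal markers FOXA1 and GATA3 had 42, 10 and 48 and 18, 6 and 10 reads, EPCAM 3, 1 and 10 and CDH1 7, 2 and 11. Of the 4 neural markers, the adhesion gene NCAM1 had 1442, 1308 and 1729 reads. The others were far lower, MAP2 with 70, 48 and 63, TUBB3 with 5, 0 and 4 and ELAVL3 with 7, 2 and 4. The 7 blood markers were summed in scaled RPM (reads per 1000000 of the TMM-adjusted library total). The sum was 7.17 in the LINC00273-labelled library, 1411 in the M2 library and 816 in the control. The globins HBB (9, 5417 and 4860 reads), HBA2 (0, 944 and 788) and HBA1 (2, 175 and 168) made most of it with M2 and in the control. PTPRC had 10, 46 and 38 reads, HBD 4, 5 and 4, CD74 4, 8 and 14 and ITGB2 15, 18 and 10. The blood sum was thus highest with M2 and lowest in the LINC00273-labelled library. LARP1 ran in the same order, at 125.6, 201 and 181 scaled RPM in the LINC00273-labelled, M2 and control libraries. So did LARP1B, at 0.652, 3.41 and 2.50 from 4, 16 and 18 reads. LARP4, LARP4B and SSB were lowest in the control instead. The part of blood RNA in the family's values was not tested. Each group is a single library, so ratios compare libraries rather than conditions, without replicates and without p-values. In bulk RNA, fewer cells of a type and less RNA per cell cannot be told apart.

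The promoter windows of LARP4 and LARP4B are shown because these members were the ones at least 2-fold higher with M2. All 7 members had a window in RefSeq (GRCh38.p14), reaching from 250 bases before to 50 bases after an annotated start. LARP4 has 3 windows and LARP4B 1, and the first listed is printed 5′ to 3′ on the gene's strand. Capitals mark CCGGAAG, a core bound by ETS-family factors, sought on both strands after these windows had been seen.
LARP4, chr12:50400635-50400934, plus strand: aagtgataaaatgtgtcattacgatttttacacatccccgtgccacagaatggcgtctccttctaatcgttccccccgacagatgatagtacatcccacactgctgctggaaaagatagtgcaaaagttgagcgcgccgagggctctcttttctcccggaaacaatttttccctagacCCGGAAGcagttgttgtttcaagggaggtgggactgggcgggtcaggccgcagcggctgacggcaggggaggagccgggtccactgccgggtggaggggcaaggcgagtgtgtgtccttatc
LARP4B, chr10:931656-931955, minus strand: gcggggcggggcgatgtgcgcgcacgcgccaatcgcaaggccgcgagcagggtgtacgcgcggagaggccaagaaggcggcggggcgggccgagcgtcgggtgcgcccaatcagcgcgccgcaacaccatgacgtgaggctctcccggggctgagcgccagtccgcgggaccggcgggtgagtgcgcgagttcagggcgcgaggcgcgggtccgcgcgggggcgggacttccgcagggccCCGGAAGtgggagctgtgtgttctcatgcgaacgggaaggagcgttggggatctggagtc
Each window held 1 copy, beginning 72 bases before the start of LARP4 and 10 bases before that of LARP4B. Of the 7 first-listed family windows 3 held it, LARP6 being the other, against 10.7% of the first-listed windows of 27305 genes. The GC box GGGCGG occurred 1 time in the LARP4 window and 3 times in that of LARP4B (44.6% of the first-listed windows of all genes held it), and CCAAT 0 and 2 times (35.7%). Because the series concerns a G-quadruplex, 4 runs of GGG spaced by 1 to 7 bases were also sought on both strands. The LARP4 window held such a run pattern and that of LARP4B did not, and 24.0% of the first-listed windows of all genes held it. The other 2 windows of LARP4 held neither CCGGAAG nor the run pattern. A match describes letters in a window and is no evidence of binding.

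LARP4 (ENSG00000161813), which protects messages from losing their poly(A) tails, lies on the plus strand of chromosome 12 (50392383 to 50480004 in GENCODE 29 on GRCh38). It had 222 reads in the LINC00273-labelled library, 328 in the M2 library and 76 in the control. Scaled, its level was 36.2 RPM in the LINC00273-labelled library (95% counting interval 29.7 to 43.5), 70.0 with M2 (59.7 to 81.6) and 10.5 in the control (7.46 to 14.5). The M2 library was highest and the control lowest, and the 3 intervals did not overlap. LARP4 was 3.43-fold higher in the LINC00273-labelled library than in the control (log2 ratio 1.78, 1.23 to 2.35) and 6.64-fold higher with M2 (2.73, 2.21 to 3.28). The 2 ratios share the control library. M2 against the LINC00273-labelled library, a ratio that leaves the control out, was 1.94-fold (0.95, 0.60 to 1.31). The median of all tested genes in that comparison was 0.29, and LARP4 stood at 0.51 after the GC centring described below. Among tested genes with reads in both libraries, LARP4 had rank 11 from the top in the LINC00273-labelled library and rank 1 with M2. The authors' deposited table for M2 lists LARP4 as higher by a fold of 6.99 (log2 2.80), the only family member among its 670 genes. None of the 809 genes in the authors' deposited table for LINC00273 is a member; the smallest higher fold listed there is 4.55 (log2 2.18), and on the deposited scaling LARP4 stood at 1.86 (log2) in that library, under this size.

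LARP4B (ENSG00000107929), the close relative of LARP4, lies on the minus strand of chromosome 10 (806914 to 931705). It had 316 reads in the LINC00273-labelled library, 317 with M2 and 235 in the control, or 51.5 (43.8 to 60.2), 67.6 (57.5 to 79.0) and 32.6 (27.0 to 39.1) scaled RPM. The control was lowest, and its interval stood apart from those of the other libraries, which overlapped each other. LARP4B was 1.58-fold higher in the LINC00273-labelled library than in the control (log2 0.66, 0.31 to 1.02) and 2.08-fold higher with M2 (1.05, 0.70 to 1.41). M2 against the LINC00273-labelled library gave 0.39 (0.07 to 0.72), and 0.07 after GC centring.

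**Figure D1:**
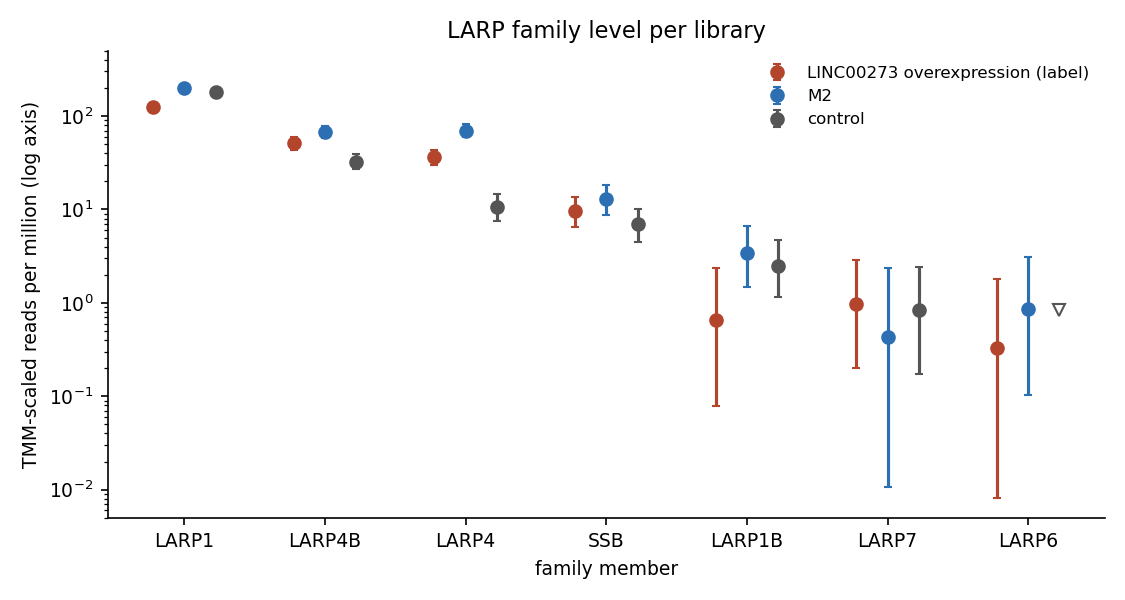
Level of each LARP family member in the 3 libraries, as TMM-scaled RPM on a log axis; points are single libraries, bars are 95% exact Poisson intervals of the fragment count, and the open triangle is the limit of 3 fragments for a count of 0 (LARP6, control). LARP4 stands at 36.2, 70.0 and 10.5 in the LINC00273-labelled, M2 and control libraries, and LARP7 and LARP6 lie below 1 in each.

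The balance of LARP4 and LARP4B can be read within a library, without scaling between libraries, though the pair differs in GC content. LARP4 took 41.3% of the reads on the pair in the LINC00273-labelled library (exact binomial interval 35.3 to 47.4), 50.9% with M2 (45.3 to 56.4) and 24.4% in the control (17.9 to 32.0). The control thus stood below the other libraries, whose intervals overlapped. The log2 ratio of LARP4 to the control exceeded that of LARP4B by 1.12 in the LINC00273-labelled library and 1.68 with M2, and by 0.31 and 0.60 after centring each on genes of like GC content. Per kilobase of the longest transcript, LARP4 stood at 0.93 times the level of LARP4B in the LINC00273-labelled library, 1.38 times with M2 and 0.43 times in the control. Against LARP1, LARP4 took 22.4% (18.8 to 26.3) of the pair's reads in the LINC00273-labelled library, 25.8% (22.4 to 29.4) with M2 and 5.51% (3.93 to 7.49) in the control.

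LARP1 (ENSG00000155506), the TOP-binding member, lies on chromosome 5 (154712902 to 154817607, plus strand) and had the most reads of the family, with 771 in the LINC00273-labelled library, 944 with M2 and 1303 in the control. The scaled levels were 125.6 (113 to 139), 201 (184 to 220.5) and 181 (167 to 195) RPM. The LINC00273-labelled library was lowest, and the intervals of the M2 and control libraries overlapped. LARP1 was 1.44-fold lower in the LINC00273-labelled library than in the control (log2 −0.53, −0.71 to −0.34; 0.04 after the GC centring described below and −0.01 when scaled by total count), and with M2 the ratio was 0.16 (−0.02 to 0.33), an interval that spans 0. The M2 library was 1.60-fold above the LINC00273-labelled one (0.68, 0.48 to 0.88; 0.47 after that centring). LARP1B (ENSG00000138709, chromosome 4, 128061268 to 128222931), its paralogue, had 4, 16 and 18 reads in the LINC00273-labelled, M2 and control libraries. Its log2 ratio to the control was −1.94 (−5.19 to 0.33) in the first and 0.45 (−1.12 to 2.0) in the second, so no difference from the control was detectable at this depth. M2 against the LINC00273-labelled library gave 2.39 (0.06 to 5.66), from 16 and 4 reads.

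SSB (ENSG00000138385), the gene of La, lies on chromosome 2 (169791933 to 169812064, plus strand) and had 59 reads in the LINC00273-labelled library, 60 with M2 and 50 in the control. Its log2 ratio to the control was 0.47 (−0.35 to 1.30) in the LINC00273-labelled library and 0.88 (0.07 to 1.71) with M2. The levels of 9.61 (6.46 to 13.8), 12.8 (8.64 to 18.3) and 6.94 (4.49 to 10.2) RPM overlapped in all 3 libraries. SSB shares 572 exon bases with METTL5 on the opposite strand, and without the strand setting their reads cannot be told apart. LARP7 (ENSG00000174720, chromosome 4, 112636964 to 112657592), the 7SK chaperone, had 6, 2 and 6 reads, and LARP6 (ENSG00000166173, chromosome 15, 70829130 to 70854159), the collagen message binder, had 2, 4 and 0. Every one of these counts is at or under the floor of 3 fragments, so no fold is given. For the LARP6 count of 0 in the control, the floor of 3 fragments stands at 0.832 scaled RPM and the upper end of the exact Poisson interval at 1.02.

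Per kilobase of gene length, LARP1 led in every library, at 19.0, 30.5 and 27.4 scaled RPM per kilobase in the LINC00273-labelled, M2 and control libraries. In the LINC00273-labelled library LARP4B (6.02), LARP4 (5.63) and SSB (3.90) followed, and neighbours in that order overlapped in their counting intervals. With M2 the order was LARP4 (10.9), LARP4B (7.92) and SSB (5.20), with LARP4B and SSB overlapping. In the control it was LARP4B (3.81), SSB (2.82) and LARP4 (1.64), where LARP4B overlapped SSB and SSB overlapped LARP4. The length taken for each gene also enters this order: with the summed exon length LARP4 came before LARP4B in the LINC00273-labelled library, at 4.46 and 4.01. LARP1B, LARP7 and LARP6 lay below 1 on this scale in each library. Among 3831 genes with at least 100 reads in 1 or more libraries, the level of LARP4 per kilobase lay at percentile 28.3 in the LINC00273-labelled library, 44.3 with M2 and 3.05 in the control.

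A read minimum leaves out members with few reads: LARP1, LARP4 and LARP4B, 3 of the 7 members, reached 100 reads in a library of each comparison, and 5 of 7 had at least 20 over both. LARP4 passed the minimum of 100 only through the treated libraries. In the LINC00273-labelled library 1 of the 3 was at least 2-fold higher than in the control, where 5.18% of all tested genes were. With M2 2 of 3 were, where 17.4% of all tested genes were, and 0 of 3 were at least 2-fold lower in either comparison (6.61% and 8.88% of all tested genes). Between M2 and the LINC00273-labelled library 0 of 3 passed in either direction (1.65% of genes higher and 1.47% lower). The median log2 ratio of the 5 members with 20 reads was 0.47 in the LINC00273-labelled library and 0.88 with M2, against −0.08 and −0.14 over all genes with that minimum. Both medians are the ratios of SSB, which fell to 0.04 and 0.11 after the GC centring described below. By 1.5-fold, 2 of 5 were higher and 1 lower in the LINC00273-labelled library (21.7% and 25.2% of all genes), and 3 higher and 0 lower with M2 (24.8% and 31.4%). M2 against the LINC00273-labelled library gave 3 of 5 higher and 0 lower (17.9% and 21.6%). The counting interval lay wholly above 0 for 2 of 5 members and below 0 for 1 in the LINC00273-labelled library (15.2% and 21.8% of all genes), and above 0 for 3 and below for 0 with M2 (22.6% and 20.9%). For M2 against the LINC00273-labelled library it lay above 0 for 4 and below for 0 (23.8% and 7.76%). Since the members were chosen with these ratios known, the shares describe them and support nothing further.

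**Figure D2:**
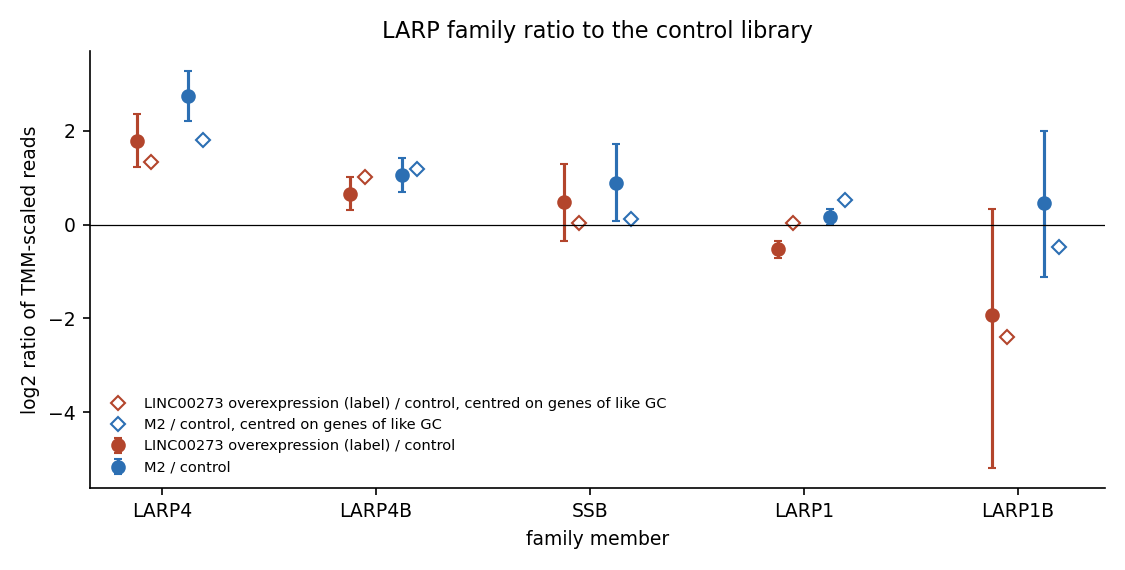
Log2 ratio to the control library of the 5 members with at least 20 reads over both libraries, for the LINC00273-labelled (red) and M2 (blue) libraries; filled circles carry 95% exact binomial counting intervals, and open diamonds are the ratios after GC centring. LARP4 stands at 1.78 and 2.73 before centring and 1.33 and 1.79 after it, and both LARP4B values lie above 0 either way.

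Base composition moved with the ratios. Across tested genes, which share depth and library, the rank correlation of the log2 ratio with GC content was −0.60 over 3796 genes for the LINC00273-labelled library and −0.69 over 3763 for M2. The longest transcript of LARP4 has 35.8% GC, that of LARP1B 36.1% and that of SSB 40.0%, all in the lowest of 5 equal GC classes, while LARP4B has 47.9% and LARP1 51.4%. The part of base composition in the members' ratios was not tested beyond the centring given here. The 200 genes nearest to LARP4 in GC content had a median log2 ratio of 0.45 in the LINC00273-labelled library and 0.94 with M2, and LARP4 exceeded these by 1.33 and 1.79. LARP4B exceeded the genes of like GC content by 1.02 and 1.19, since their medians were −0.36 and −0.14. The ratios of SSB left 0.04 and 0.11 after centring, close to 0. LARP1 stood at 0.04 in the LINC00273-labelled library after centring, against −0.53 before it, and at 0.52 with M2.

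**Figure D3:**
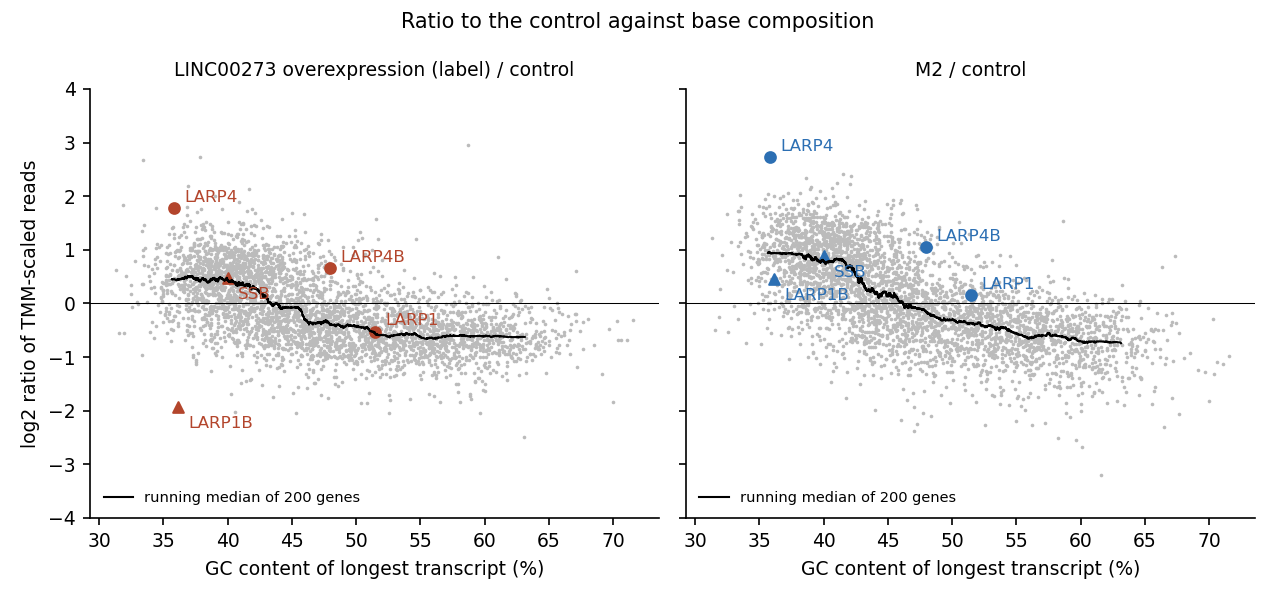
Log2 ratio to the control against the GC content of the longest transcript, for the LINC00273-labelled library (left) and M2 (right); grey points are the tested genes (minimum of 100 reads), the line is the running median of 200 genes, and coloured circles (at least 100 reads) and triangles (fewer) are family members. LARP4, at 35.8% GC, lies 1.33 (left) and 1.79 (right) above the genes of like GC content, while SSB lies within 0.11 of them.

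The genes whose pair of log2 ratios to the control lay nearest to that of LARP4, by Euclidean distance over 3873 genes and the 3 libraries, were TFRC, the transferrin receptor, at 0.33, the SUMO protease SENP1 at 0.36, the kinesin KIF21A at 0.60, GLCE, an enzyme of heparan sulfate synthesis, at 0.61 and the FGF receptor adaptor FRS2 at 0.73. TFRC had log2 ratios of 1.72 in the LINC00273-labelled library and 2.41 with M2, and SENP1 1.68 and 2.38. These 5 genes had 42 to 220 reads in the control and GC contents of 36.9% to 42.1%, all below the median of 45.8% for genes with at least 100 reads.

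**Figure D4:**
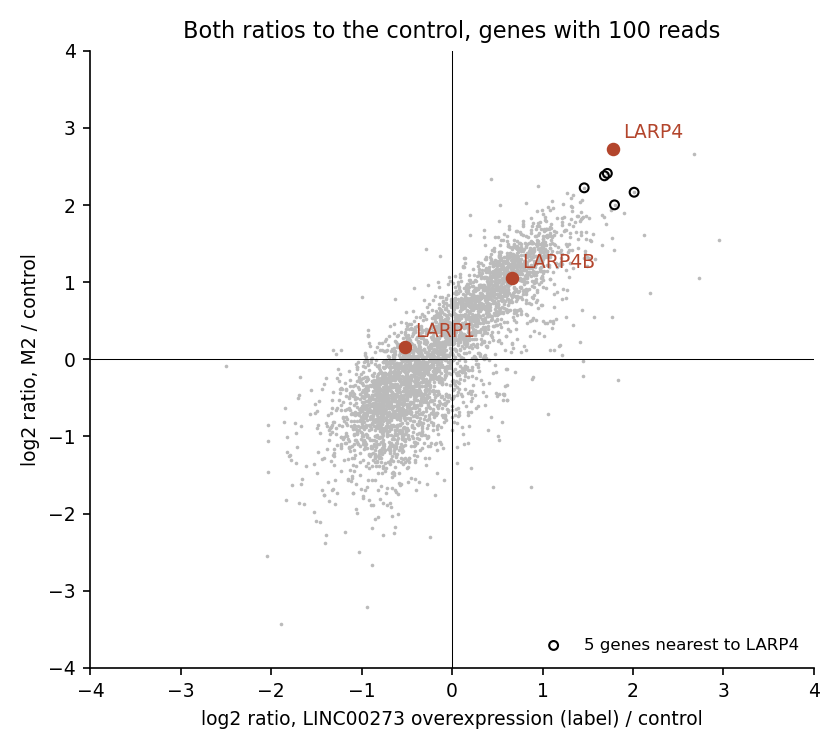
Log2 ratio to the control of 3871 genes, for the LINC00273-labelled library (horizontal) and M2 (vertical), with members in red and the 5 genes nearest to LARP4 ringed; the axes share the control library, so a gene's control count enters both, and 2 genes lie outside the axes. LARP4 (1.78, 2.73) lies at the upper right, LARP4B (0.66, 1.05) within the cloud and LARP1 (−0.53, 0.16) left of 0.

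The partners and client RNAs of each member were then examined as lists, with 20 reads over both libraries as the minimum and 1.5-fold as the size counted. The shares of all genes past that size are those given above for 1.5-fold. They apply before GC centring, and no such share was computed after it. For LARP4 and LARP4B, the list held 25 genes of the poly(A) tail, its binding proteins and its deadenylases. In the LINC00273-labelled library 4 of 24 measured members were higher and 2 lower (median log2 ratio 0.10). With M2 11 of 24 were higher and 2 lower (0.50), and the median was 0.01 after GC centring. CNOT1, the scaffold of the CCR4-NOT deadenylase, had 4586 reads in the LINC00273-labelled library, 4701 with M2 and 2265 in the control, log2 ratios of 1.25 (1.15 to 1.35) and 1.67 (1.57 to 1.78), and stayed at 1.32 and 1.55 after centring. Its catalytic subunit CNOT6 stood at 1.01 (0.47 to 1.57) and 1.52 (0.99 to 2.07), and at 0.57 and 0.70 after centring. Another catalytic subunit, CNOT8, was lower with M2 (−1.33, −2.29 to −0.46), with 28 reads against 108 in the control, and stood at −1.56 after centring. CNOT7, also catalytic, had 367 reads with M2 against 294 in the control (0.94, 0.62 to 1.26), and stood at 0.005 after centring. PABPC1, the cytoplasmic poly(A)-binding protein, stood at 0.25 (0.09 to 0.41) and 0.68 (0.52 to 0.83), and at 0.77 and 1.06 after centring.

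The TOP list for LARP1 held 91 ribosomal protein and translation factor genes. In the LINC00273-labelled library 46 of 78 measured members were lower and 2 higher (median −0.66), and with M2 33 of 79 were lower and 7 higher (−0.50). After GC centring 20 and 21 were lower, with medians of −0.30 and −0.21. Without a 1.5-fold share of all genes on the centred scale, these counts cannot show whether the list differs from other genes. RPS20, of the small subunit, had 62 reads with M2 against 241 in the control (−1.34, −1.96 to −0.76), and RPS21 had 282 against 1021 (−1.23, −1.51 to −0.96). After centring they stood at −1.70 and −0.60. RPL21 had 4 reads in the LINC00273-labelled library against 27 in the control (−2.52, −5.71 to −0.39). HNRNPA1, an RNA-binding protein, was higher with M2 (1.17, 1.06 to 1.29) and stood at 0.78 after centring. Ribosomal protein genes have many near-identical pseudogenes, and how the counting split their reads is not given. Of the mTORC1 list, MTOR itself stood at −0.33 (−0.52 to −0.15) and −0.19 (−0.38 to 0.0049), and RPS6KB1, the S6 kinase, at 0.62 (0.44 to 0.81) and 1.12 (0.94 to 1.30). After centring MTOR turned to 0.26 and 0.18, and RPS6KB1 stood at 0.19 and 0.21. Of its measured members 2 of 11 were higher and 1 lower in the LINC00273-labelled library and 2 of 10 higher and 2 lower with M2.

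For SSB and LARP7, 5 of the 14 listed small RNAs were measured. All 5 were lower in the LINC00273-labelled library and 4 of 5 with M2, with medians of −0.87 and −0.72. Only 3 of the 5 could be centred on GC content, since RN7SL1 and RN7SL2 had no matched transcript. Of those 3, 2 were lower after centring in the LINC00273-labelled library, and 1 was lower and 1 higher with M2. A 1.5-fold share of all genes after centring is again lacking. RN7SK had 442071, 459064 and 1195595 reads in the LINC00273-labelled, M2 and control libraries, log2 ratios of −1.20 (−1.21 to −1.20) and −0.76 (−0.77 to −0.75). RMRP, the RNA of RNase MRP, had 16, 65 and 106 reads, and RPPH1, the RNA of RNase P, stood at −0.66 and −1.52. After centring RN7SK stood at −0.60 and −0.18 and RPPH1 at −0.05 and −0.88. Among the proteins that bind or answer to 7SK, the P-TEFb cyclins CCNT1 (1.0, 0.45 to 1.56, and 1.46, 0.92 to 2.02) and CCNT2 (0.83, 0.48 to 1.19, and 1.22, 0.87 to 1.58) were higher in both libraries, HEXIM1, the P-TEFb inhibitor, had ratios within 0.01 of 0 in both, and the kinase CDK9 was lower with M2 (−1.23, −2.40 to −0.19). After centring on GC content CCNT1 stood at 0.66 and 0.68, CCNT2 at 0.33 and 0.29 and HEXIM1 at 0.41 and 0.19, and CDK9 with M2 at −0.65. MEPCE, of the same list, had 32, 41 and 74 reads in the LINC00273-labelled, M2 and control libraries. Its ratios were −0.98 (−1.92 to −0.10) and −0.23 (−1.08 to 0.59), and −0.36 and 0.48 after centring. The 7SK list with RN7SK had 3 of 7 measured members higher and 3 lower in the LINC00273-labelled library, and 2 of 6 higher and 2 lower with M2.

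Of the partners of La and of the U6 RNA end, 2 of 7 measured members were higher and 3 lower in the LINC00273-labelled library, and 2 of 6 higher and 1 lower with M2. USB1, the U6 exonuclease, had 4, 20 and 46 reads in the LINC00273-labelled, M2 and control libraries and a ratio of −3.29 (−6.42 to −1.28) in the first. For LARP6, the collagens it is known to bind were barely measured: COL1A1 had 18, 15 and 36 reads and COL1A2 had 21, 9 and 25, and their intervals spanned 0 in both comparisons. Before GC centring its partners DHX9, a helicase (1.04, 0.82 to 1.27, and 1.48, 1.26 to 1.71), and MYH10, a non-muscle myosin (1.05, 0.76 to 1.34, and 1.39, 1.10 to 1.68), were higher in both libraries. VIM stood at −0.17 (−0.23 to −0.11) and −0.87 (−0.94 to −0.80). After centring VIM turned to 0.20 in the LINC00273-labelled library and stood at −0.80 with M2. Over that list 3 of 8 were higher and 1 lower in the LINC00273-labelled library, and 2 of 7 higher and 3 lower with M2.

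**Figure D5:**
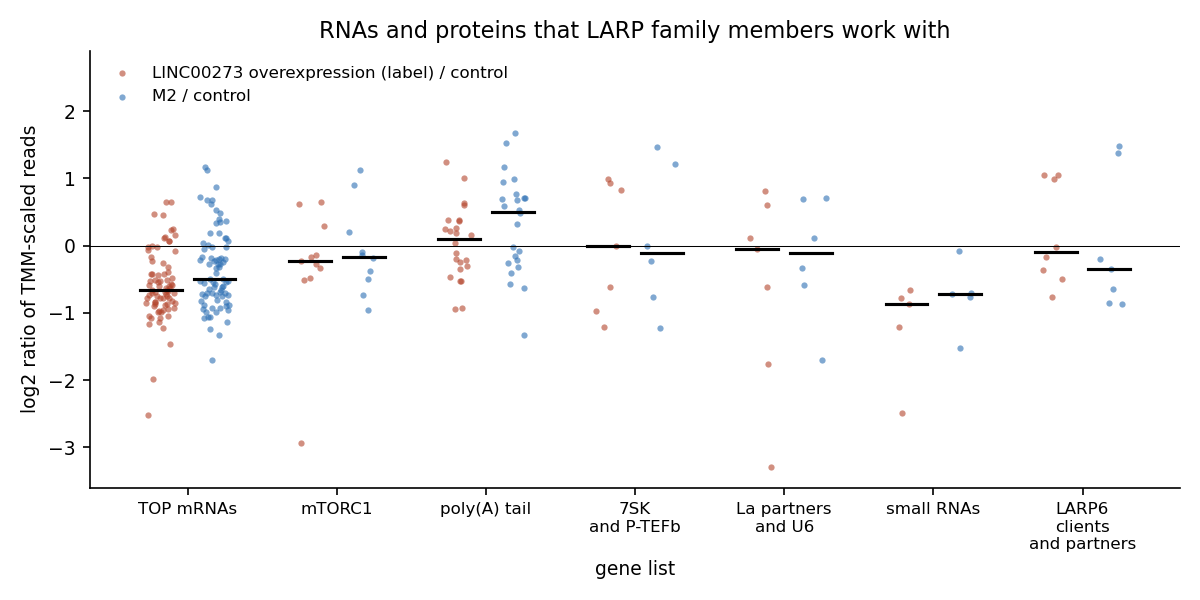
Log2 ratio to the control of the genes in each list with at least 20 reads over both libraries, for the LINC00273-labelled (red) and M2 (blue) libraries; each point is a gene and each black bar a list's median. The medians of the TOP list lie at −0.66 and −0.50, those of the poly(A) list at 0.10 and 0.50 and those of the small RNAs at −0.87 and −0.72.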

How the data were processed

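The 7 family members, the gene lists and the comparisons were chosen with earlier results of these data known. The authors deposited 1 scaled signal per gene and library, and the submitters' processing notes name Trimmomatic, Bowtie2 2.2.4, STAR, featureCounts 1.5.2, DESeq2 and hg19; no settings, annotation or handling of strand and multi-mapping reads is given in the sources used here. The fold and log2 ratio columns in the authors' deposited tables compare these scaled values. Within a library all values were whole multiples of 1 step (100% within 0.01), so whole reads were recovered in place of the counts that the design had assumed. Of genes with under 20 reads, 82.3% (control) had an even number, so 2 reads were taken as 1 fragment for intervals and floors. TMM factors from edgeR 4.0.16 (R 4.3.3) scaled the reads, and log2 ratios were taken without a prior, with 95% exact binomial (Clopper-Pearson) intervals of the fragment split, or exact Poisson intervals for a level. Intervals and floors reflect counting error alone, since PCR copies cannot be told from separate molecules. With 1 library per group no count test could be run, so no number of genes called by one is given. The ratio step was run on simulated data that held counting error alone, as the intervals assume. That run therefore cannot check spread between libraries, PCR copies or the trend with GC content. Length and GC content came from the longest GENCODE 29 transcript (GRCh38, matched by Ensembl ID for 98.9% of genes with at least 100 reads). GC centring subtracted the median ratio of the 200 genes nearest in GC content. Named list genes were those among the 4 with the largest ratio of either sign at 20 or more reads; further ones were chosen after their values were seen, and LSM8 was not analysed here. Alternatives were DESeq2 size factors (DESeq2 1.42.0), other scalings, GC centring, a prior of 5 reads, read minimums, protein-coding genes only and another gene length.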

Additional observations from a re-analysis of the deposited data

How the results depend on the processing

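No paired analysis was possible because each group is a single library; for the same reason no replicate could be left out. The alternatives were 3 other scalings of all reads, TMM without RN7SL1 and RN7SK, GC centring, a prior of 5 reads and other read minimums. LARP4 stayed between 1.33 and 2.30 (log2) above the control in the LINC00273-labelled library and between 1.79 and 2.99 with M2, and LARP4B between 0.65 and 1.18 and between 1.05 and 1.31. LARP1 in the LINC00273-labelled library moved from −0.53 to −0.01 under total count and to 0.04 under GC centring, so its direction depends on these settings. LARP1B with M2 went to −0.49 under GC centring. Total count moved the median of all tested genes by 0.52 in the LINC00273-labelled library, 0.26 with M2 and −0.26 between M2 and that library. Under total count and under GC centring 2 members, LARP4 and LARP4B, were at least 2-fold higher in the LINC00273-labelled library. Of all tested genes 21.4% and 3.5% were so under these settings. The share of all genes at least 2-fold higher in that library than in the control became 21.4% by total count, 8.34% with a minimum of 20 reads and 27.1% with none, and the share lower 0.963% by total count, 3.55% by GC centring and 22.0% with no minimum. With M2 the share higher became 4.7% by GC centring, and the share lower 4.36% by total count, 16.5% and 5.74% with minimums of 20 and 500 reads and 33.6% with none. Between M2 and the LINC00273-labelled library, the share higher became 0.499% by total count, 0.415% by GC centring, 4.29% and 0.91% with minimums of 20 and 500 and 15.8% with none, and the share lower 3.32%, 2.88%, 10.9%, 0.827% and 35.1% in the same order. Lower minimums add genes with few reads by construction; the cause of the other shifts was not tested. Depth limits LARP1B, LARP6, LARP7 and SSB most, at 60 reads or fewer per library.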

Other observations

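Within the span of LARP1B lies AC099340.1, a processed pseudogene on the opposite strand that shares 0 exon bases with it. It had 64, 40 and 132 reads in the LINC00273-labelled, M2 and control libraries, against 4, 16 and 18 for LARP1B. Of the 5 annotated pseudogenes of family members, LARP1P1 had 2 reads in the LINC00273-labelled library and 0 in the others, LARP4P had 4 reads with M2 and 0 in the others, and LARP1BP1, LARP1BP2 and LARP1BP3 had 0 in all. METTL5, which overlaps SSB, had 10, 27 and 26 reads in the LINC00273-labelled, M2 and control libraries. ZGRF1, which shares 32 exon bases with LARP7 on the opposite strand, had 12, 8 and 2 reads, and LRRC49, which shares 123 with LARP6, had 4, 6 and 4. FAM186A, on the opposite strand within the span of LARP4 and sharing 0 exon bases with it, had 2, 8 and 4 reads, against 222, 328 and 76 for LARP4.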
